A study of Danio rerio with 6 samples.

Results

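The 9 genes described here carry the transcriptional end of canonical Wnt signaling. They are the TCF/LEF factors lef1 (ENSDARG00000031894), tcf7 (ENSDARG00000038672), tcf7l2 (ENSDARG00000004415), tcf7l1a (ENSDARG00000038159) and tcf7l1b (ENSDARG00000007369), the beta-catenin gene ctnnb1 (ENSDARG00000014571), the feedback inhibitor axin2 (ENSDARG00000100149), and the ligand genes wnt1 (ENSDARG00000055554) and wnt3a (ENSDARG00000058822). They were taken by Ensembl gene identifier, with no threshold on a measured value but with earlier results of these data known, and are 9 of the 32057 genes in the deposited table. All 9 identifiers carry the matching symbol in the gene name table used here, where tcf7l1a is entered as TCF7L1 and tcf7l1b under its own name.

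When a Wnt ligand binds its receptors, beta-catenin escapes a destruction complex built on Axin, enters the nucleus and joins TCF/LEF proteins on DNA. Without beta-catenin, TCF/LEF proteins hold their targets silent together with Groucho/TLE corepressors. Lef1 and Tcf7 act mainly as activators and the Tcf7l1 proteins mainly as repressors, while Tcf7l2 can do both. Zebrafish tcf7l1a is the gene mutated in headless embryos. In vertebrates, axin2 is a widely used readout of canonical Wnt signaling, and wnt1 and wnt3a are made in the dorsal neural tube, next to the forming neural crest (NC).

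The samples were NC cells of zebrafish embryos at 24 hpf, all carrying Tg(7XTCF:nls-mCherry)ia5 and Tg(-7.2sox10:EGFP)ir937. The first transgene drives nuclear mCherry from TCF binding sites, and the second drives EGFP from a sox10 fragment, so NC cells were those in which the sox10 fragment was active. FACS divided the EGFP+ cells by mCherry, giving 3 libraries of mCherry+ cells, called high-Wnt, and 3 of mCherry− cells, called low-Wnt. The number of embryos behind each library is not given in the sources used here, so p-values measure the spread between these libraries, which may be technical. The mCherry and EGFP transcripts were not analysed here.

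The values are TPM, which correct for transcript length and sum to a fixed total in every library, so the number of reads behind a value is not in the table and no counting error can be given. Low-Wnt replicate 3 stood apart from the other libraries. Only 9230 genes reached 1 TPM there, whereas 13481 to 14417 did so in each remaining library, and its value was the lowest of the 6 for 9944 of 14163 tested genes. Across 13187 genes, the TPM there was at the median 24.3% of the mean of low-Wnt replicates 1 and 2. Of the 7 genes tested here, 6 lay further down than that, though tcf7l1a and tcf7l2 were near the middle of all genes. The share of genes that lay further down still was 7.94% for lef1, 13.8% for ctnnb1, 14.5% for axin2 and 16.5% for tcf7. It was 42.3% for tcf7l1a, 43.8% for tcf7l2 and 51.1% for tcf7l1b. In low-Wnt replicate 3, lef1 stood at 3.40% of the mean of the other low-Wnt libraries, ctnnb1 at 5.93%, axin2 at 6.24% and tcf7 at 7.03%, while tcf7l1a stood at 18.9%, tcf7l2 at 19.8% and tcf7l1b at 25.2%. Each comparison is therefore given with and without this library, and ratios between genes of the same library are given beside the TPM.

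Within the libraries, ctnnb1 was far above the other 8 genes and the ligands were at the floor. In high-Wnt cells, ctnnb1 averaged 459 ± 83.5 TPM, tcf7l1a 44.3 ± 10.5, lef1 34.4 ± 3.74, tcf7l1b 26.0 ± 5.95, axin2 21.6 ± 4.24, tcf7l2 16.5 ± 4.04 and tcf7 4.26 ± 0.841 (SD, n = 3). The gaps between tcf7l1a and lef1 and between tcf7l1b and axin2 were smaller than the larger SD of each pair, so their order is not resolved, although tcf7l1a was above lef1 in all 3. In low-Wnt replicates 1 and 2 the means were 484 TPM for ctnnb1, 38.1 for tcf7l1a, 27.7 for lef1, 23.6 for axin2, 10.4 for tcf7l1b, 4.24 for tcf7l2 and 3.27 for tcf7. There tcf7l1a and lef1 changed places between the libraries. The order of axin2 and tcf7l1b varied, with tcf7l1b above axin2 in 2 of the 3 high-Wnt libraries and below it in low-Wnt replicates 1 and 2.

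**Figure D1:**
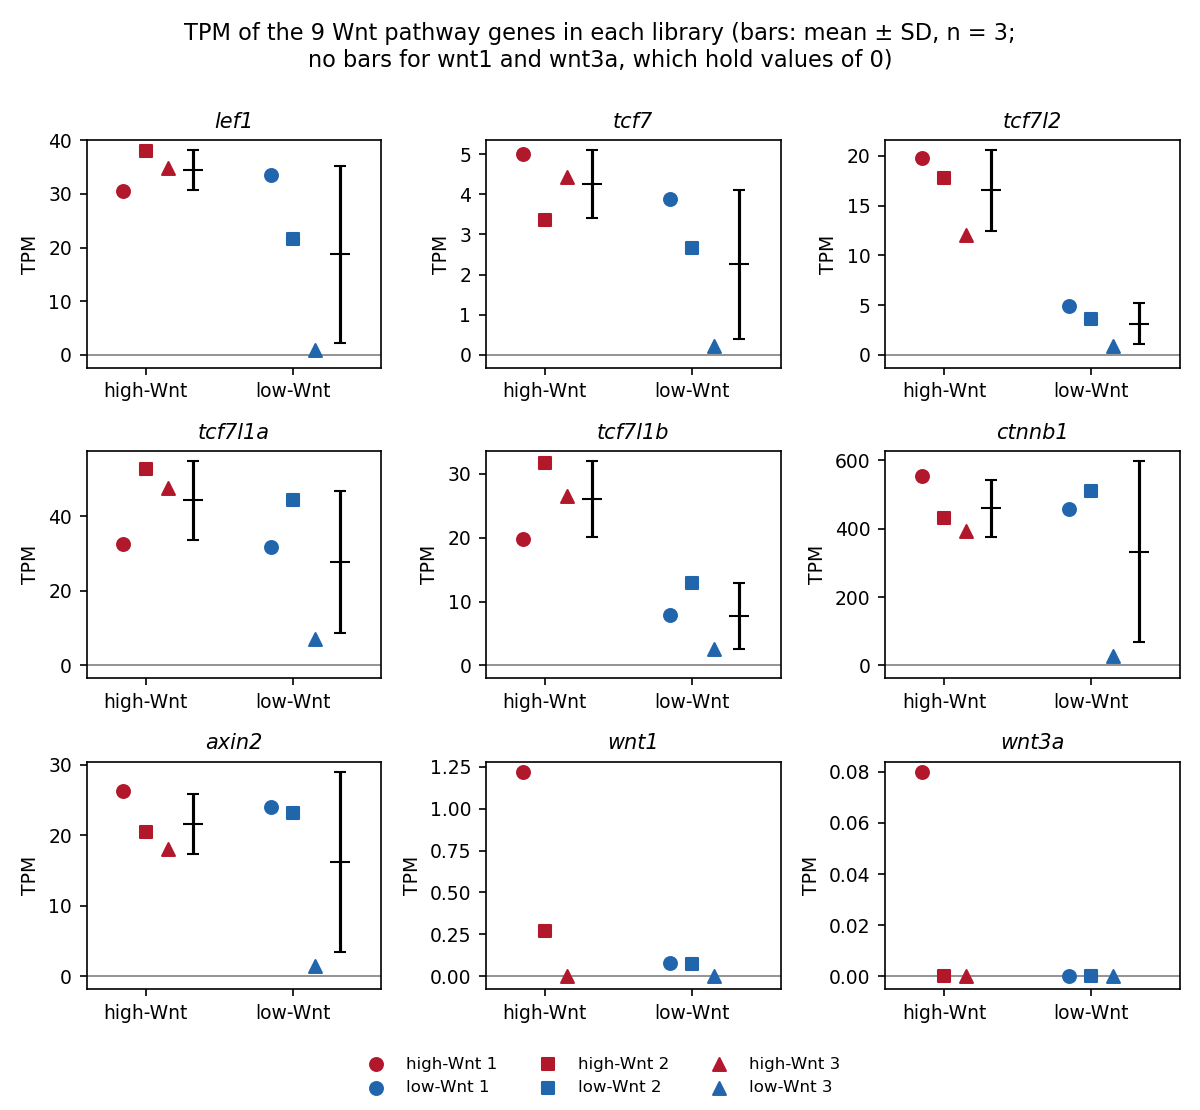
TPM (y axis, linear) of each of the 9 genes in the high-Wnt libraries (red, left) and low-Wnt libraries (blue, right), with the marker shape giving the replicate and black bars the mean ± SD of 3 libraries (none for wnt1 and wnt3a, which hold values of 0). tcf7l2 and tcf7l1b lie higher in every high-Wnt library than in any low-Wnt library, and low-Wnt replicate 3 (triangle) is the lowest point for the 7 genes from lef1 to axin2.

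The clearest differences between the populations were in tcf7l2 and tcf7l1b. tcf7l2 had 19.8, 17.8 and 12.0 TPM in high-Wnt replicates 1, 2 and 3, against 4.88, 3.60 and 0.84 TPM in low-Wnt replicates 1, 2 and 3. The populations did not overlap, with all high-Wnt values above all low-Wnt values, which held for 22.4% of all genes tested. In the model over all 6 libraries its log2 fold change on the log2(TPM + 1) scale was 2.22 (95% interval 0.91 to 3.54, limma adjusted p = 0.137). Without low-Wnt replicate 3 the log2 fold change was 1.73 (95% interval 1.12 to 2.33, limma adjusted p = 0.0082), a rise past the 0.05 threshold, which 12.7% of all genes passed in that fit. On the linear scale the high-Wnt mean was 3.90 times the mean of low-Wnt replicates 1 and 2.

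tcf7l1b, the paralog of tcf7l1a, had 19.9, 31.8 and 26.5 TPM in high-Wnt replicates 1, 2 and 3, against 7.83, 12.9 and 2.61 TPM in low-Wnt replicates 1, 2 and 3. Again every high-Wnt library was above every low-Wnt library. Its log2 fold change was 1.80 over all 6 libraries (95% interval 0.49 to 3.11, limma adjusted p = 0.209) and 1.26 without low-Wnt replicate 3 (95% interval 0.65 to 1.88, limma adjusted p = 0.023). The high-Wnt mean was 2.51 times the mean of low-Wnt replicates 1 and 2. For tcf7l2 and for tcf7l1b, the exact two-sided permutation test over the libraries gave p = 0.1, the smallest value that 3 libraries against 3 allow.

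The remaining TCF/LEF factors did not pass the test in either fit. lef1 had 30.5, 37.9 and 34.8 TPM in high-Wnt replicates 1, 2 and 3, against 33.6, 21.7 and 0.94 TPM in low-Wnt replicates 1, 2 and 3. Low-Wnt replicate 1 lay inside the high-Wnt range. The log2 fold change of lef1 was 1.62 over all 6 libraries (95% interval -0.62 to 3.86, limma adjusted p = 0.477) and 0.33 without low-Wnt replicate 3 (95% interval -0.15 to 0.82, limma adjusted p = 0.319). tcf7l1a had 32.5, 52.7 and 47.7 TPM in high-Wnt replicates 1, 2 and 3, against 31.7, 44.5 and 7.20 TPM in low-Wnt replicates 1, 2 and 3. Values of the populations overlapped. Its log2 fold change was 0.95 over all 6 libraries (limma adjusted p = 0.510) and 0.20 without low-Wnt replicate 3 (95% interval -0.35 to 0.75, limma adjusted p = 0.599). tcf7 was the least abundant factor, with 5.01, 3.35 and 4.42 TPM in high-Wnt replicates 1, 2 and 3, against 3.88, 2.66 and 0.23 TPM in low-Wnt replicates 1, 2 and 3. These also overlapped, with a log2 fold change of 0.90 over all 6 libraries (limma adjusted p = 0.501) and of 0.30 without low-Wnt replicate 3 (95% interval -0.35 to 0.95, limma adjusted p = 0.50). Without low-Wnt replicate 3 the intervals reach folds of up to 1.76 for lef1, 1.69 for tcf7l1a and 1.93 for tcf7. Over all 6 libraries they reach folds of up to 14.5 for lef1, 5.32 for tcf7l1a and 4.67 for tcf7. Differences up to these bounds remain possible at this number of libraries. The bounds are folds of TPM + 1 and move with the number added. With 0.1 added instead, they were 1.81 for lef1, 1.73 for tcf7l1a and 2.26 for tcf7 without low-Wnt replicate 3. Over all 6 libraries they were then 27.3, 6.09 and 14.3.

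Set beside the whole table, these calls read as follows. Over all 6 libraries 7 of the 9 genes were tested and 0 were called, while 0.367% of the 14163 genes tested were called by limma, 0.261% higher and 0.106% lower in high-Wnt cells. Of the 7, tcf7l2 and tcf7l1b were under 0.05 before adjustment, as were 2008 of all genes tested. Without low-Wnt replicate 3, 2 of the 7 were called, both higher, while 12.7% of 15000 genes were called, 7.17% higher and 5.57% lower. High-Wnt TPM lay wholly above low-Wnt TPM for 22.4% of genes over 6 libraries and 25.1% over 5, and wholly below it for 5.57% over 6 and 22.6% over 5.

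The scaling of the libraries moved these values. Across all tested genes, the median log2 fold change was 0.51 over 6 libraries, 0.02 after quantile normalization, -0.08 after median centring, and 0.05 without low-Wnt replicate 3. The 52 genes called over 6 libraries were 37 higher and 15 lower, against 92 higher and 85 lower after quantile normalization and 11 higher and 35 lower after median centring. Quantile normalization of the 6 libraries called 1.25% of all genes, 0.650% higher and 0.600% lower. In that fit tcf7l2 passed the test (log2 fold change 1.66, limma adjusted p = 0.042) and tcf7l1b did not (log2 fold change 1.29, limma adjusted p = 0.104). With the same normalization of 5 libraries both were called, beside 12.3% of all genes, 6.33% higher and 5.93% lower.

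**Figure D2:**
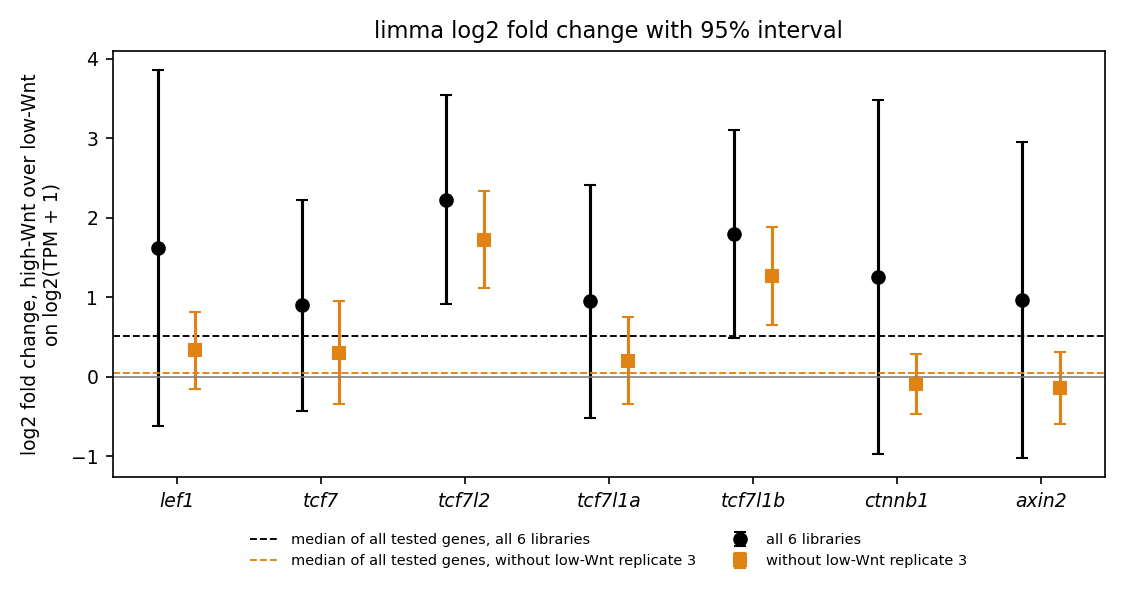
log2 fold change of high-Wnt over low-Wnt cells on the log2(TPM + 1) scale (y axis) for the 7 tested genes, over all 6 libraries (black circles) and without low-Wnt replicate 3 (orange squares). Bars are 95% intervals from limma and dashed lines the median of all tested genes in each fit, at 0.51 and 0.05. Without low-Wnt replicate 3, only the intervals of tcf7l2 and tcf7l1b lie above 0, and those of ctnnb1 and axin2 are centred just below it.

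Set against one another within a library, of the 5 TCF/LEF genes only tcf7l2 and tcf7l1a had shares that did not overlap between high-Wnt and low-Wnt cells, and no exact permutation test of 3 libraries against 3 can give less than p = 0.1. Their summed TPM was 108, 144 and 125 in high-Wnt replicates 1, 2 and 3, against 81.9, 85.3 and 11.8 in low-Wnt replicates 1, 2 and 3. tcf7l2 made up 18.4%, 12.4% and 9.57% of that sum in the high-Wnt libraries, against 5.96%, 4.22% and 7.11% in the low-Wnt libraries. No share of tcf7l2 in low-Wnt cells reached the lowest high-Wnt share (exact two-sided permutation test, p = 0.1). With 1 added to each TPM, the share in low-Wnt replicate 3 was 10.9%, above the lowest high-Wnt share of 9.97%, so the separation then rested on low-Wnt replicates 1 and 2. The repressor gene tcf7l1a made up 30.2%, 36.7% and 38.04% in the high-Wnt libraries, against 38.7%, 52.1% and 60.9% in the low-Wnt libraries. Its share was thus smaller in every high-Wnt library than in any low-Wnt library, although replicate 3 of high-Wnt and replicate 1 of low-Wnt cells were close (exact two-sided permutation test, p = 0.1). The share of lef1 was 26.4% to 28.3% in the high-Wnt libraries, against 41.1%, 25.4% and 7.95% in the low-Wnt libraries, and the populations overlapped. The share of tcf7l1b was 18.5% to 22.1% in the high-Wnt libraries, against 9.56%, 15.1% and 22.1% in the low-Wnt libraries, where only replicate 3 lay in the high-Wnt range. The share of tcf7 was at most 4.74% in any library. The shares are parts of 1 sum, so a larger share of one factor lowers the others.

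**Figure D3:**
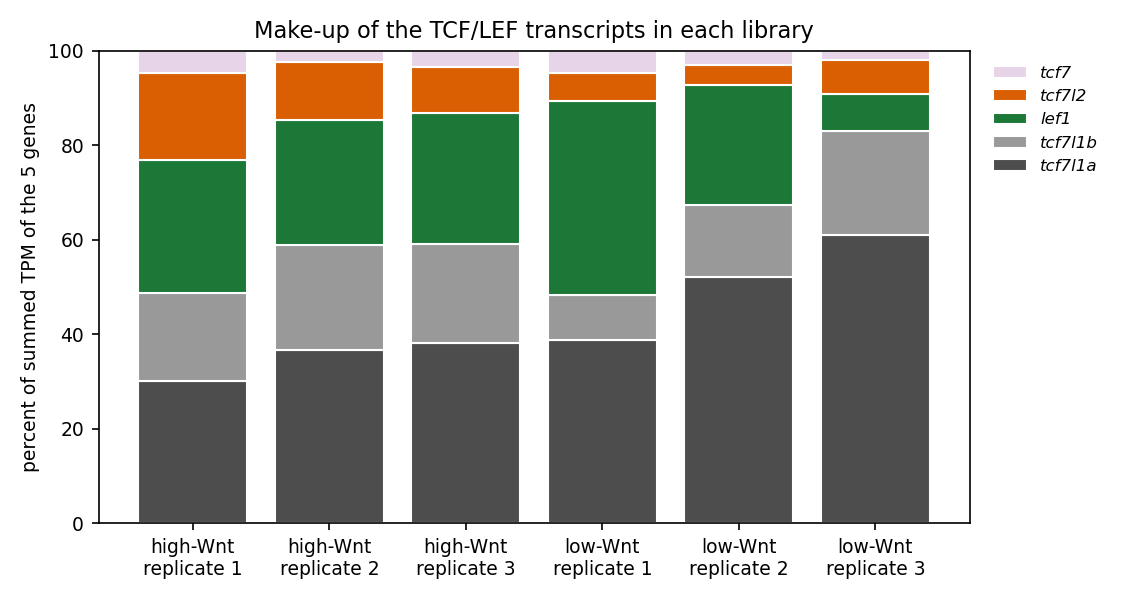
Each bar is 1 library and shows the percent of the summed TPM of the 5 TCF/LEF genes that each gene holds (y axis, 0 to 100%). The tcf7l2 segment (orange) spans 9.57% to 18.4% in the high-Wnt libraries and 4.22% to 7.11% in the low-Wnt libraries, and the tcf7l1a segment (dark grey) is smallest in the high-Wnt libraries.

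The Tcf7l1 paralogs did not keep a fixed ratio. The TPM of tcf7l1b over that of tcf7l1a was 0.612, 0.603 and 0.555 in high-Wnt replicates 1, 2 and 3, against 0.247, 0.290 and 0.363 in low-Wnt replicates 1, 2 and 3. Here low-Wnt replicate 3 lay with the other low-Wnt libraries. High-Wnt cells had a mean ratio of 0.590 ± 0.0306 and low-Wnt cells one of 0.300 ± 0.0583 (SD, n = 3 each; exact two-sided permutation test, p = 0.1, the smallest possible). This ratio was chosen after the values had been seen. Summed, the paralogs held 48.6% to 59.1% of the TCF/LEF TPM in the high-Wnt libraries and 48.2% to 83.0% in the low-Wnt libraries, with overlap. RSEM divides reads that fit both paralogs between them, and how far such reads entered these values was not tested.

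The gene ctnnb1, which encodes the beta-catenin that TCF/LEF factors bind, did not separate the populations. It had 553, 432 and 393 TPM in high-Wnt replicates 1, 2 and 3, against 458, 511 and 28.7 TPM in low-Wnt replicates 1, 2 and 3. Low-Wnt replicates 1 and 2 lay inside the high-Wnt range. By abundance it ranked 243 to 337 in 5 libraries and 2041 in low-Wnt replicate 3. The log2 fold change was 1.25 over all 6 libraries (95% interval -0.97 to 3.48, limma adjusted p = 0.552) and -0.09 without low-Wnt replicate 3 (95% interval -0.47 to 0.29, limma adjusted p = 0.740), so its sign turned with that library. The second beta-catenin gene, ctnnb2, had 105, 80.5 and 72.8 TPM in the high-Wnt libraries, against 77.2, 78.4 and 9.24 TPM in the low-Wnt libraries.

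axin2, which encodes a scaffold of the destruction complex and is itself induced by Wnt signaling, did not separate the populations either, although they were sorted on a TCF reporter. It had 26.2, 20.4 and 18.0 TPM in high-Wnt replicates 1, 2 and 3, against 24.0, 23.2 and 1.47 TPM in low-Wnt replicates 1, 2 and 3. Low-Wnt replicates 1 and 2 were above 2 of the 3 high-Wnt libraries. The log2 fold change was 0.96 over all 6 libraries (95% interval -1.02 to 2.95, limma adjusted p = 0.591) and -0.14 without low-Wnt replicate 3 (95% interval -0.59 to 0.31, limma adjusted p = 0.661). On the log2(TPM + 1) scale the upper bound without low-Wnt replicate 3 is a fold of 1.24. In those 5 libraries a larger rise of axin2 lay outside the interval, whereas over all 6 libraries the bound was 7.74. With 0.1 added in place of 1, the bounds were 1.25 and 12.1.

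Relative to ctnnb1, axin2 was nearly level across all libraries, though not once 1 was added to each TPM. With that addition the log2 ratio was -3.59 in low-Wnt replicate 3, against -4.41 to -4.20 in the other libraries. How many other genes stay as level was not tested. With nothing added, the log2 ratio of axin2 to ctnnb1 was -4.40, -4.40 and -4.45 in high-Wnt replicates 1, 2 and 3, against -4.25, -4.46 and -4.29 in low-Wnt replicates 1, 2 and 3. The populations overlapped, and low-Wnt replicate 3, in which the TPM of each gene was far down, lay between the other low-Wnt libraries. High-Wnt cells averaged -4.42 ± 0.0278 and low-Wnt cells -4.34 ± 0.112 (SD, n = 3 each; exact two-sided permutation test, p = 0.4). By contrast, the log2 ratio of tcf7l2 to ctnnb1 was -4.80, -4.60 and -5.03 in the high-Wnt libraries, against -6.55, -7.15 and -5.10 in the low-Wnt libraries, with no overlap but little distance to low-Wnt replicate 3, and with overlap once 1 was added to each TPM. The ratio of tcf7l1b to ctnnb1 was -4.80, -3.77 and -3.89 in the high-Wnt libraries, against -5.87, -5.31 and -3.46 in the low-Wnt libraries, where low-Wnt replicate 3 was above all others. The ratios of lef1, tcf7 and tcf7l1a to ctnnb1 overlapped between the populations. A ratio shows unequal levels and does not show which of its genes differed.

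**Figure D4:**
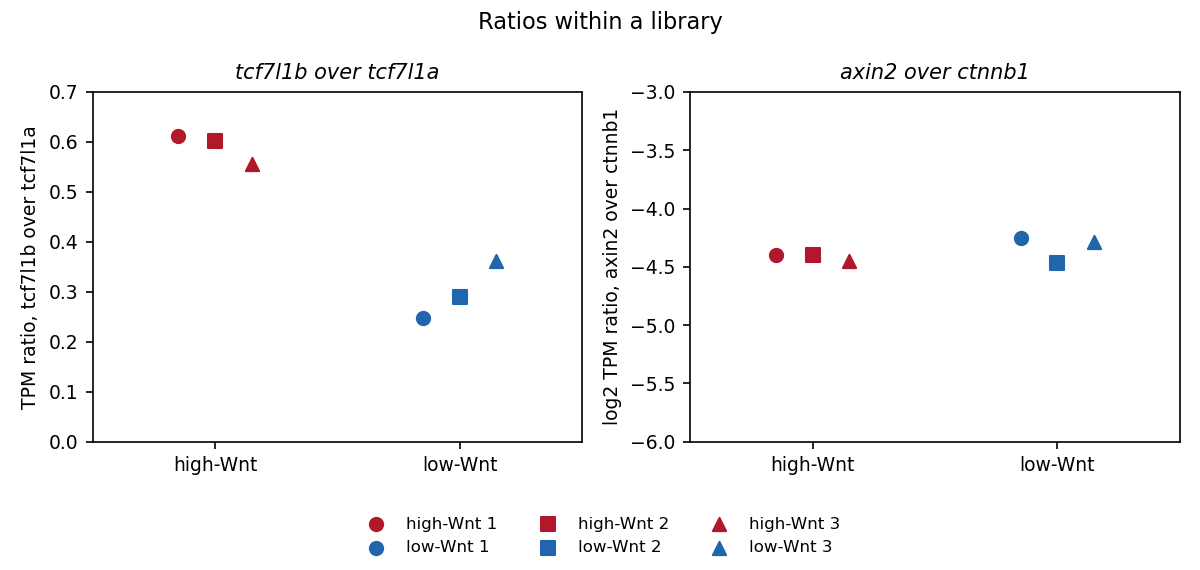
Left, TPM of tcf7l1b divided by TPM of tcf7l1a (y axis from 0), and right, log2 of the TPM of axin2 over that of ctnnb1, in the high-Wnt (red) and low-Wnt (blue) libraries, with marker shape giving the replicate. The left ratio is 0.555 to 0.612 in high-Wnt cells and 0.247 to 0.363 in low-Wnt cells, while the right ratio stays between -4.46 and -4.25 in all 6 libraries.

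The ligand genes were at or near 0 in both populations. For wnt1 the table lists 1.22, 0.27 and 0 TPM in the high-Wnt libraries, against 0.08, 0.07 and 0 TPM in the low-Wnt libraries. wnt3a was listed at 0.08 TPM in high-Wnt replicate 1 and at 0 in the other 5 libraries. Only high-Wnt replicate 1 reached 1 TPM of wnt1, so neither gene passed the filter on low values and neither was tested in the main fits. With no filter, limma gave adjusted p = 0.509 for wnt1 and adjusted p = 0.742 for wnt3a. An exact 0 in a table without counts does not show absence.

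Around these genes, 91 symbols of the Wnt pathway were listed, of which 85 matched a gene in the table under 93 identifiers. Leaving out the 9 genes above, 59 of 84 identifiers were tested over all 6 libraries. High-Wnt cells had 0 of these called higher and 1 called lower, with a median log2 fold change of 0.83 against 0.51 for all tested genes. The 1 call is 1.69% of those tested, beside 0.367% of all genes, 0.261% higher and 0.106% lower. Without low-Wnt replicate 3, 62 were tested, 3 were called higher and 5 lower, and the median was 0.01 against 0.05 for all tested genes. Those 8 are 12.9% of the list genes tested, close to the 12.7% called among all genes, 7.17% higher and 5.57% lower.

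The gene called in both fits was rspo1, which encodes an R-spondin that strengthens Wnt signaling at the receptor. It had 0.03, 0.31 and 0.33 TPM in high-Wnt replicates 1, 2 and 3, against 10.7, 5.72 and 7.5 TPM in low-Wnt replicates 1, 2 and 3. All low-Wnt libraries, replicate 3 included, were thus above all high-Wnt libraries, which held for 5.57% of all genes tested over 6 libraries. All high-Wnt values of rspo1 were under 1 TPM, near the floor. It therefore passed the filter on low values only through the low-Wnt libraries, where it was high, and its calls carry that limit. Its log2 fold change was -2.85 over all 6 libraries (limma adjusted p = 0.042) and -2.87 without low-Wnt replicate 3 (limma adjusted p = 0.0033). With any one of the other 5 libraries left out, limma called 0 of all genes, rspo1 included. lgr4, an R-spondin receptor gene, ran the other way, with 6.36, 6.03 and 4.32 TPM in the high-Wnt libraries, against 2.04, 1.86 and 0.39 TPM in the low-Wnt libraries. Its log2 fold change was 1.5 over all 6 libraries (limma adjusted p = 0.203) and 1.14 without low-Wnt replicate 3 (limma adjusted p = 0.032).

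Among the other genes of the Wnt pathway list, the calls without low-Wnt replicate 3 went in both directions. A gene entered as SP5 (ENSDARG00000076571), a transcription factor induced by Wnt signaling in vertebrates, had 5.90, 7.36 and 6.16 TPM in the high-Wnt libraries, against 16.8, 19.2 and 16.0 TPM in the low-Wnt libraries. Its log2 fold change was -1.29 over all 6 libraries (limma adjusted p = 0.207) and -1.35 without low-Wnt replicate 3 (limma adjusted p = 0.0081). All 3 low-Wnt libraries were above all high-Wnt libraries, which held for 5.57% of all genes tested over 6 libraries. ccnd1, which encodes cyclin D1, had 133, 124 and 128 TPM in the high-Wnt libraries, against 253, 224 and 24.6 TPM in the low-Wnt libraries, and was called lower (log2 fold change -0.89, limma adjusted p = 0.0053). The Wnt-binding inhibitor wif1 and wls, which carries Wnt proteins to the cell surface, were also called lower, with log2 fold changes of -0.98 and -0.81. Over all 6 libraries none of these 3 was called and the sign turned for ccnd1, at 0.19, and for wls, at 0.44, but not for wif1, at -0.41. An inhibitor gene entered as SFRP1 (ENSDARG00000035521) and one of the genes entered as MYC (ENSDARG00000007241) were called higher, with log2 fold changes of 1.19 and 0.55, but not over all 6 libraries. nkd1, a feedback inhibitor induced by Wnt signaling, had 16.1, 14.3 and 12.2 TPM in the high-Wnt libraries, against 16.5, 18.2 and 1.15 TPM in the low-Wnt libraries. It was not called without low-Wnt replicate 3 (log2 fold change -0.27, 95% interval -0.71 to 0.17, limma adjusted p = 0.364). A gene entered as NKD2 (ENSDARG00000055271) had 17.7, 14.4 and 15.0 TPM in the high-Wnt libraries, against 7.07, 10.5 and 2.23 TPM in the low-Wnt libraries. Without low-Wnt replicate 3 its log2 fold change was 0.79 (limma adjusted p = 0.055). In that fit znrf3, at 0.64 (limma adjusted p = 0.108), and nkd3 (ENSDARG00000013174), at -0.77 (limma adjusted p = 0.081), were not called either.

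Other ligands had higher levels than wnt1 and wnt3a. wnt11 had 50.9, 52.4 and 46.5 TPM in the high-Wnt libraries, against 55.6, 46.6 and 8.99 TPM in the low-Wnt libraries. wnt5b had 21.6, 26.4 and 24.0 TPM in the high-Wnt libraries, against 24.7, 27.9 and 2.59 TPM in the low-Wnt libraries. Both encode ligands best known for noncanonical signaling, and neither was called in either fit. Of the 19 ligand identifiers, 5 passed the filter over all 6 libraries.

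NC markers were found in every library, and the sums of NC markers and of several other marker lists were higher in the high-Wnt libraries. The summed TPM of 7 NC identifiers, sox10 and foxd3 among them, was 667, 793 and 737 in high-Wnt replicates 1, 2 and 3, against 508, 521 and 144 in low-Wnt replicates 1, 2 and 3. Of these identifiers, only sox10 and snai1b overlapped between the populations. sox10, the most abundant, had 244, 343 and 310 TPM in the high-Wnt libraries, against 259, 240 and 72.9 TPM in the low-Wnt libraries. It was not called without low-Wnt replicate 3 (log2 fold change 0.25, limma adjusted p = 0.330). The summed TPM of 5 neural tube identifiers, including sox2, sox3 and elavl3, was 129, 152 and 152 in the high-Wnt libraries, against 56.9, 61.1 and 19.1 in the low-Wnt libraries. Without low-Wnt replicate 3, 4 of these 5 were called higher, as were 3 of the 7 NC, 2 of 3 muscle, 1 of 3 otic and placodal, 1 of 2 periderm and epithelium and 0 of 2 blood identifiers, beside 7.17% of all genes. Over all 6 libraries 0 of them were called, beside 0.367% of all genes. Periderm and epithelium markers (krt4 and epcam) summed to 970, 1212 and 1165 TPM in the high-Wnt libraries, against 428, 555 and 193 TPM in the low-Wnt libraries. That gap lay in krt4, with 816, 1050 and 999 TPM in the high-Wnt libraries, against 292, 386 and 52.6 TPM in the low-Wnt libraries. Values of epcam overlapped, at 154, 162 and 166 TPM in the high-Wnt libraries, against 136, 169 and 141 TPM in the low-Wnt libraries. Muscle markers summed to 83.0, 102 and 99.8 TPM in the high-Wnt libraries, against 20.3, 18.3 and 63.3 TPM in the low-Wnt libraries. Otic and placodal markers spanned 57.0 to 64.7 TPM in the high-Wnt libraries and 50.8 to 53.7 TPM in the low-Wnt libraries. Blood markers overlapped between the populations, and the endothelial marker kdrl was at most 1.30 TPM in any library. In bulk samples, fewer cells of a type and less RNA per cell cannot be told apart.

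The NC, neural tube, periderm, muscle and otic sums, but not the blood sum or kdrl, were higher in every high-Wnt library than in any low-Wnt library, as tcf7l2 and tcf7l1b were. Both genes were set against the NC and neural tube sums alone, a step chosen after the values had been seen. tcf7l2 stood at 2.97%, 2.25% and 1.63% of the summed NC markers in high-Wnt replicates 1, 2 and 3, against 0.961%, 0.691% and 0.584% in low-Wnt replicates 1, 2 and 3, with no overlap. tcf7l1b stood at 2.98%, 4.0% and 3.59% of the NC markers in the high-Wnt libraries, against 1.54%, 2.48% and 1.81% in the low-Wnt libraries, again with no overlap. Relative to the summed neural tube markers the populations overlapped for both genes. tcf7l2 stood at 15.3%, 11.7% and 7.90% of that sum in the high-Wnt libraries, against 8.58%, 5.89% and 4.39% in the low-Wnt libraries. tcf7l1b stood at 15.4%, 20.9% and 17.4% in the high-Wnt libraries, against 13.8%, 21.1% and 13.6% in the low-Wnt libraries. The periderm, muscle and otic sums were not used in this way, so the overlap cannot be read as particular to neural tube markers. The part of other cell types in the TCF/LEF differences was not tested.

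The genes most like axin2 across the 6 libraries were AP2B1 (ENSDARG00000035152), an adaptor subunit of clathrin-coated vesicles, and PFAS (ENSDARG00000003750), an enzyme of purine synthesis. Pearson's r with axin2 on the log2(TPM + 1) scale was 0.9996 and 0.9994 over 6 libraries, and 0.981 and 0.976 once low-Wnt replicate 3 was left out. Both genes were picked on the r over 6 libraries, which include the libraries of the second r, so the second r is not a separate test. How many genes reach such an r without low-Wnt replicate 3 was not counted. AP2B1 had 39.2, 31.8 and 28.4 TPM in the high-Wnt libraries, against 38.5, 36.9 and 3.03 TPM in the low-Wnt libraries. Of 6278 genes with a mean TPM of at least 10, 2195 had an r over 0.95 with axin2 over the 6 libraries, and low-Wnt replicate 3, the lowest library for axin2, is 1 of the 6 points behind each r.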

How the data were processed

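FACS-sorted high-Wnt and low-Wnt NC cells were profiled with Smart-seq2 libraries, which amplify full-length transcripts. The authors mapped reads to GRCz11 with STAR v2.5.2a, quantified them with RSEM v1.2.31 and deposited TPM values per Ensembl gene, 1 column per library. No column was left without a sample. The study's methods give an approximate sequencing depth for the samples in general, but the TPM table holds no read counts per library or gene, so the counting precision of a single value could not be computed. The annotation release is not given in the sources used here.

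The study used a count model. TPM values are not counts, so log2(TPM + 1) was fitted with limma 3.58.1 in R 4.3.3 (population only, variance trend, all genes together), and p-values were adjusted by Benjamini-Hochberg over all tested genes with a threshold of 0.05. A gene was tested when 3 or more libraries held 1 TPM or more of it (2 or more in fits that omit a library). A pseudocount of 1 understates the change of low genes. Fold changes are high-Wnt over low-Wnt. Exact permutation tests enumerate all assignments of libraries. The fit was run on simulated data with independent noise for each gene. No library was shifted as a whole there, so a drop like that of low-Wnt replicate 3 was not covered. Python 3.11.15, pandas 2.3.3 and matplotlib 3.10.9 were used for tables and plots.

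Of the 32057 identifiers, 28988 have a symbol in the name table, which drops the paralog letter of some genes. Listed paralogs were then entered under every identifier of that symbol. fzd4, wnt11r, btrc, notum1a, rnf43 and lgr5 were not analysed here. The text names all 9 genes, the list genes called or used for comparison, and the 2 genes most like axin2 by Pearson's r. The other named list genes were chosen after their values were seen. The 9 genes and the lists were chosen with earlier results of these data known, so the choice was not blind to the data, although the rule that picks the 9 genes is a list of identifiers and applies no measured value. Alternatives were a pseudocount of 0.1, no filter, a filter on a mean TPM of 5, quantile normalization, median centring, no variance trend, sample quality weights, a replicate block and each library left out.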

Additional observations from a re-analysis of the deposited data

How the results depend on the processing

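Among the 9 genes, tcf7l2 and tcf7l1b were higher in high-Wnt cells under every alternative run, but passed the threshold under few of those planned. Every high-Wnt TPM of both genes lay above every low-Wnt TPM. Only the settings that rescale libraries, quantile normalization and median centring, could therefore have turned their direction. Over the alternatives planned, tcf7l2 was called in 3 of 14 (log2 fold change 1.63 to 2.65, limma adjusted p 0.00026 to 0.605) and tcf7l1b in 2 of 14 (1.21 to 2.24, limma adjusted p 0.0019 to 0.751). Of the 7 genes tested, 1 was called after quantile normalization, beside 1.25% of all genes, 2 with sample quality weights, beside 29.1% of all genes, and from 0 to 2 with each library left out, the 2 being found without low-Wnt replicate 3, beside 12.7% of all genes. Each of the 4 settings added after seeing the data, which combined leaving out low-Wnt replicate 3 with quantile normalization, median centring, a pseudocount of 0.1 or the replicate block, called 2, beside 3.26% to 14.3% of all genes. lef1, tcf7 and tcf7l1a were called under none and kept their direction. With a mean TPM of at least 5, tcf7 was not tested.

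ctnnb1 and axin2 were called under no alternative and turned direction with low-Wnt replicate 3. Without it, their log2 fold changes were -0.0907 and -0.14, where the other 5 libraries left out in turn gave from 1.11 to 1.96 and from 0.82 to 1.53. With sample quality weights they were -0.18 and -0.17. With that library left out, they were -0.0896 and -0.0871 after quantile normalization, -0.15 and -0.20 after median centring, -0.0909 and -0.15 with a pseudocount of 0.1, and 0.014 and -0.0244 with the replicate block.

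Adding 1 to each TPM moved the difference in the share of tcf7 to -1.52 percentage points and that in the log2 ratio of axin2 to ctnnb1 to -0.29, since low-Wnt replicate 3 holds low values. Over all genes, 52 were called, against 17 with a pseudocount of 0.1, 4 with no filter, 13 with a mean TPM of at least 5, 177 after quantile normalization, 46 after median centring, 13 without a variance trend, 4128 with sample quality weights, and from 0 to 1912 with each library left out. The 1912 were found without low-Wnt replicate 3, and leaving out any of the other 5 libraries gave 0 (1003 to 2962 genes under 0.05 before adjustment in limma). The settings added after seeing the data gave 1838, 2146, 1686 and 489 in the order above. The replicate block over all 6 libraries gave 168 called genes and 0 of the 9. Deviations of same-numbered libraries from their group means correlated at 0.03, -0.01 and 0.14, against a mean of -0.031 for different numbers. The low-Wnt means include low-Wnt replicate 3, the lowest library for most genes, so this check could not decide on a pairing. The sources used here give none, and the numbers were not read as one. Except where the way a setting is built shows it, the cause was not tested.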
